A study of Mus musculus and Rattus norvegicus with 80 samples.

Results

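UID-3342 and UID-6793 are a pair of full-length mouse L1 loci (LINE-1, the autonomous retrotransposon family of mammals) that each hold a processed pseudogene of a ribosomal protein gene inside the L1 interval. They are 2 of the 17019 annotated full-length L1 loci counted in every mouse library, and both belong to the list of 14075 loci without intact open reading frames. They were chosen by their locus names because of their high read numbers in the libraries as a whole, so their reads, their shares of L1 reads and their coverage are given here as descriptions without a test. The tests below are on differences between groups, some of which were known from earlier work on these data when the loci were chosen.

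The libraries came from C57BL/6 mice, with no allele or treatment given for any animal, and each library is 1 organ of 1 mouse. Cytoplasmic polyadenylated RNA was sequenced in pairs with the strand kept. The study's methods name sequencing methods of different read length, and the labels do not assign them to libraries. In males, testis and liver were each taken from 3 mice at 4 ages, namely 7.6, 12.8 and 22.3 mo and a youngest group of 1.9–3.6 mo. Brain was taken at 7.6 and 12.8 mo (3 mice each) and lung at 7.6 mo (2 mice) and 12.8 mo (3 mice). The testis is labelled only as the reproductive organ, and the organ was taken from the study's methods. In females, ovary, brain and lung were taken at 2.2–3.2 mo (3 mice), 8–8.7 mo (4 mice) and 16.5 mo (2 mice), and uterus at the same ages in 1, 3 and 2 mice. These 24 groups hold 68 libraries, and 12 rat libraries of the study were not used. The files list L1 loci and no genes, so the labelled organs could not be checked against marker genes. A library held 9567 to 109959 reads on all annotated L1 loci, out of 8.45 to 51.4 M mapped reads.

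A full-length L1 carries a promoter at its 5′ end and a pair of open reading frames, and its proteins copy RNA into DNA that is inserted at a new place in the genome. The same proteins can act on cellular mRNA. The product is a processed pseudogene, a copy of a spliced mRNA that lacks the introns of its parent gene. Ribosomal protein mRNAs are abundant in nearly every cell, and their processed pseudogenes are many in mammalian genomes. A short read that falls on such a copy can also be spelled by the parent's mRNA. Where it crosses an exon junction, it has no exact unbroken place in the parent gene.

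UID-3342 lies on the plus strand of chromosome X, with the L1 at chrX:79191262-79196308 in mm10 (5047 bp). Rps24-ps3 (ENSMUSG00000081049.1) is annotated on the same strand at chrX:79195047-79195448, 402 bp that lie wholly within the L1. Its closest annotated transcript was Rps24-210 of Rps24, a protein of the small ribosomal subunit, with 99.0% identity over 402 bases. UID-6793 lies on the plus strand of chromosome 3, with the L1 at chr3:119706166-119711435 (5270 bp). Gm4332 (ENSMUSG00000106037.1) is annotated on the same strand at chr3:119709516-119709861, 346 bp that also lie wholly within the L1. Its name does not show a parent. Its closest annotated transcript was Rps20-203 of Rps20, another protein of the small ribosomal subunit, with 99.7% identity over 346 bases.

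The sequences of both pseudogenes are shown because they are the stretch of each L1 that shares its letters with an abundant mRNA. They are from the GENCODE transcripts of mm10, plus strand, and capitals mark the bases that differ from the closest mRNA.
Rps24-ps3, chrX:79195047-79195256: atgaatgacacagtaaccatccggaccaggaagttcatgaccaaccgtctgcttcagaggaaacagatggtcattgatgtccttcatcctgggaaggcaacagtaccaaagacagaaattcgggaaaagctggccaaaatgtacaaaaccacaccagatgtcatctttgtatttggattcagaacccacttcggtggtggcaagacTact
Rps24-ps3, chrX:79195257-79195448: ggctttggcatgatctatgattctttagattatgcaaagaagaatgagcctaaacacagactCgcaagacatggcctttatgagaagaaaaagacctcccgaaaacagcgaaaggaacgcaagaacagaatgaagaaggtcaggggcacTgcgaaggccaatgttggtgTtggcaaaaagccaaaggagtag
Gm4332, chr3:119709516-119709725: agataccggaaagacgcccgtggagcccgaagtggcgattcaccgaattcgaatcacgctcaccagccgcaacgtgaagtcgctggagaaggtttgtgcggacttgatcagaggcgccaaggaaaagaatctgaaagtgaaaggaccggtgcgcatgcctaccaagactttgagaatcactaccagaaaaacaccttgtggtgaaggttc
Gm4332, chr3:119709726-119709861: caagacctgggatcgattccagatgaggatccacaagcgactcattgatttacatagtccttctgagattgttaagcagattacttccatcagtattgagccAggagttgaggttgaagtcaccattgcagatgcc
Counted from the 5′ end of each pseudogene, with the mRNA's base first, Rps24-ps3 differed from its mRNA by C207T, G273C, G360T and C380T. Gm4332 differed from its mRNA by G313A alone.

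The exon junctions of the parents are shown next. A read across one of them can be placed in the pseudogene in 1 piece and in the parent gene only as a split or with mismatches. Each line gives 30 bases, with the last 2 bases of the exon before and the first 2 of the exon after in capitals.
Rps24 mRNA, exons 2 and 3: cagaggaaacagaTGGTcattgatgtcctt
Rps24-ps3, chrX:79195101-79195130: cagaggaaacagaTGGTcattgatgtcctt
Rps24 mRNA, exons 3 and 4: cacagactggcaaGACAtggcctttatgag
Rps24-ps3, chrX:79195311-79195340: cacagactcgcaaGACAtggcctttatgag
Rps20 mRNA, exons 2 and 3: agtcgctggagaaGGTTtgtgcggacttga
Gm4332, chr3:119709593-119709622: agtcgctggagaaGGTTtgtgcggacttga
Rps20 mRNA, exons 3 and 4: cgcatgcctaccaAGACtttgagaatcact
Gm4332, chr3:119709667-119709696: cgcatgcctaccaAGACtttgagaatcact
The letters were identical at 3 of these 4 junctions, and the exon 3 and 4 window of Rps24-ps3 held 1 mismatch, G273C. Rps24-ps3 holds 4 junctions in all, and those of exons 1 and 2 and of exons 4 and 5 are not shown because they lie near its ends, where 30 bases would run past it.

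Both loci were read heavily in all 68 libraries. UID-3342 held 1228 to 56808 reads per library (median 7569), and UID-6793 held 820 to 37798 (median 5798). UID-3342 took 9.33% to 52.8% of a library's L1 reads (median 24.0%), and UID-6793 took 7.11% to 34.4% (median 17.8%). Together they took 18.8% to 86.0% (median 42.5%), and in 21 libraries these 2 loci held over 50% of the reads on all 17019 loci. The shares depend on the denominator, and set against the reads of all the other loci alone the medians were 41.6% and 31.4%.

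By reads, UID-3342 was at rank 1 among all loci in 42 libraries, at rank 2 in 16 and at rank 3 in 10. UID-6793 was at rank 1 in 3 libraries, at rank 2 in 46, at rank 3 in 9 and at rank 4 in 10. Both held ranks 1 and 2 in 40 libraries. Apart from each other, the only loci that came above them were UID-13571 and UID-5687. UID-13571, an L1 on the minus strand of chromosome 4 with an annotated pseudogene (Gm12669) in the counted bases upstream of it, was above UID-3342 in 18 libraries and above UID-6793 in 22. The 3 libraries with UID-6793 at rank 1 were the 12.8 mo testes, where the counted window around each L1 was shorter. There UID-13571 had 6973 to 7609 reads over 352 to 355 covered bases. In the other testes UID-13571 had 12637 to 21517 reads over 742 to 954 bases and was at rank 1. Whether the window changed these ranks was not tested. UID-5687, chosen for naming after its values were seen, was above them in 6 and 16 libraries.

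The combined share was highest in the male lung and lowest in the brain of females. In the 5 male lungs it was 74.5% to 86.0% (median 80.0%). In the 12 testes it was 20.9% to 36.2% (median 24.9%), in the 12 livers 38.8% to 56.3% (median 44.5%) and in the 6 male brains 28.5% to 40.6% (median 35.1%). Every male lung was above every other male library, and every testis was below every liver. These male ranges pool the 12.8 mo libraries, counted in shorter windows, with the others. Brains had 37.6% to 40.6% at 12.8 mo and 28.5% to 32.6% at 7.6 mo, and the highest testis and liver were of 12.8 mo. Lungs went the other way, with 74.5% to 80.0% at 12.8 mo and 83.2% to 86.0% at 7.6 mo. The part of the window in this was not tested. In females the range was 29.97% to 57.0% in 9 ovaries (median 44.0%), 44.1% to 65.4% in 6 uteri (median 56.5%), 18.8% to 34.5% in 9 brains (median 23.8%) and 44.0% to 66.8% in 9 lungs (median 56.6%). Female lungs and uteri covered nearly the same range, and female lungs stayed below every male lung.

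**Figure D1:**
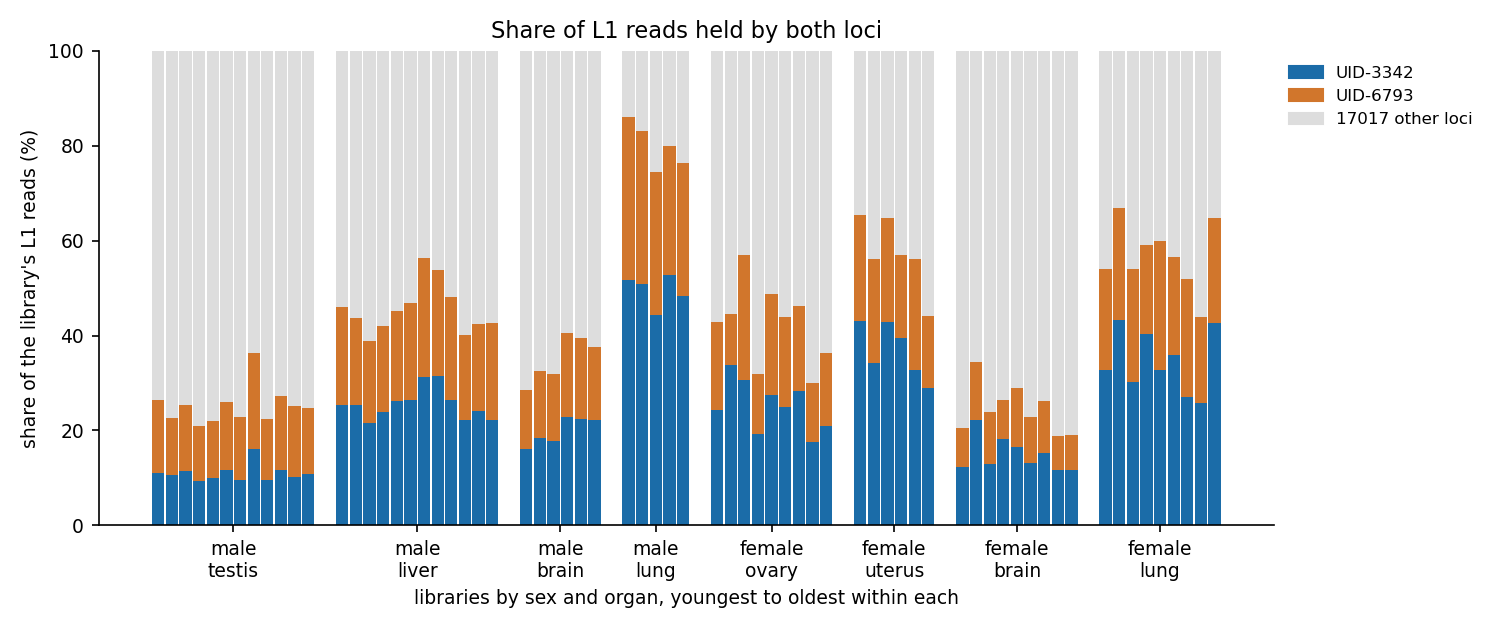
Share of a library's L1 reads on UID-3342 and UID-6793, in percent, by sex and organ. Each stacked bar is 1 library, from youngest to oldest within an organ, and grey is the share of all other loci. The male lungs lie highest, with 74.5% to 86.0% on both loci together, and the female brains lowest, with 18.8% to 34.5%.

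Levels are given as RPM, the reads of a locus scaled to a library of 1 M mapped reads. The RPM of UID-3342 had a median of 2606 in male lungs (range 1708 to 3016), 326 in livers (95.0 to 718), 234 in testes (173 to 422) and 222 in male brains (142 to 297). In females it was 487 in uteri (369 to 671), 293 in lungs (161 to 538), 197 in ovaries (160 to 355) and 66.0 in brains (39.3 to 111). The male lungs lay apart from all other libraries, the livers, testes and female lungs overlapped widely, and every uterus was above every ovary. For the liver at 718 RPM (mouse 900, 12.8 mo) the mapped reads rest on 1 of 3 loci.

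The RPM of UID-6793 had a median of 1406 in male lungs (1159 to 2007), 298 in testes (241 to 529), 277 in livers (69.1 to 503) and 162 in male brains (114 to 229). In females it was 306 in uteri (193 to 383), 188 in lungs (126 to 278), 142 in ovaries (113 to 182) and 42.5 in brains (33.8 to 75.0). The lung of males was again apart from the rest and the brain of females was lowest. The highest liver, at 503, was again that of mouse 900. In the order of the 24 group means, neighbouring groups did not overlap at only 3 places for each locus. For UID-3342 these were below the male lungs of 12.8 mo, above the male brains of 7.6 mo and above the female brains of 8–8.7 mo. For UID-6793 they were below the male lungs of 7.6 mo, below those of 12.8 mo and above the female brains of 8–8.7 mo. All the other neighbours in the order overlapped in their ranges.

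**Figure D2:**
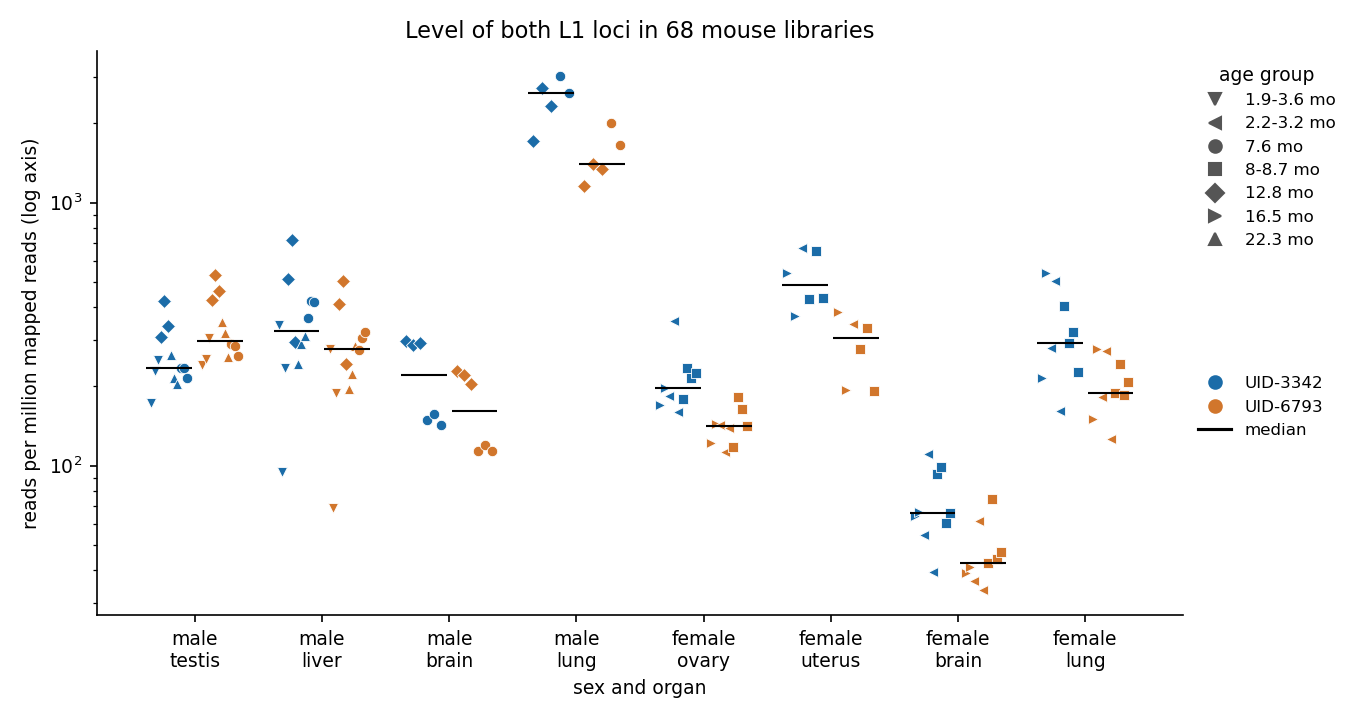
RPM (log scale) of UID-3342 and UID-6793 in the 68 mouse libraries, by sex and organ, with the age group given by the marker. Each point is 1 library and a bar marks the median. The male lungs of 7.6 and 12.8 mo lie highest for both loci, from 1159 to 3016, and the female brains lowest, from 33.8 to 111.

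The reads came from a short stretch of each locus. The counted window of UID-3342 had 6747 bp (the L1 with flanks on both sides) and that of UID-6793 had 6970 bp. In the 12.8 mo libraries the windows were shorter, 5847 and 6070 bp. Reads covered 477 to 517 bases of the UID-3342 window (median 511), which was 7.11% to 7.66% of the longer window and up to 8.81% of the shorter one. They covered 353 to 404 bases of the UID-6793 window (median 379), 5.06% to 5.65% of the longer and up to 6.66% of the shorter window. The library with the most reads on UID-3342, the lung of mouse 1209, covered 515 bases of it, and the one with the fewest, the brain of mouse 1534, covered 496. The files give how many bases were covered and not which, so the covered bases were not placed on the pseudogenes. For comparison of length, RefSeq annotates Rps24-ps3 over 505 bp and Gm4332 over 399 bp. In all 68 libraries both loci had an even number of reads, and mates are counted separately, whereas UID-13571 had an even number in 30 libraries.

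The covered length of UID-6793 separated the sexes. It was 353 to 377 bases in the 33 female libraries and 379 to 404 in the 35 male libraries, with no overlap, in every organ. UID-3342 did not show such a split, with 495 to 515 bases in females and 477 to 517 in males. Male and female mice were of different ages that interleaved. In the youngest groups it was 353 to 377 bases in females of 2.2–3.2 mo and 382 to 392 in males of 1.9–3.6 mo for UID-6793. The labels give neither the sequencing run nor the read length of a library. Sex therefore cannot be told apart from run or read length, and the part of age was not tested.

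The order of the pair was one way in the testis and the other way everywhere else. The ratio of UID-6793 to UID-3342 reads was above 1 in 12 of 12 testes (1.11 to 1.48, median 1.26) and below 1 in 56 of 56 other libraries (0.318 to 0.916, median 0.715). Both loci are read in the same library, so the ratio does not depend on the library's mapped reads. Per covered base the ratio was 1.45 to 1.93 in testes and 0.456 to 1.24 elsewhere, which again did not overlap. In the testes of 7.6 mo mice 1209, 1303 and 1305 the ratio was 1.24, 1.22 and 1.21, and in their livers it was 0.759, 0.723 and 0.772. The lowest ratio of all, 0.318, was in the ovary of mouse 1535.

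**Figure D3:**
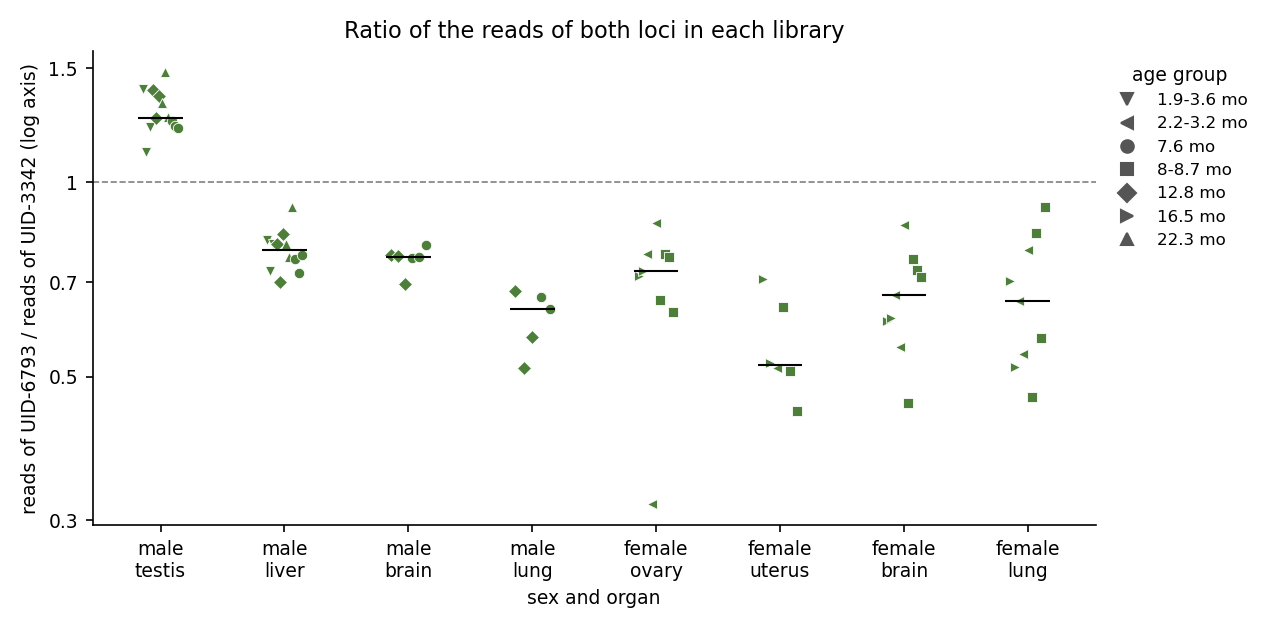
Ratio of UID-6793 reads to UID-3342 reads in each library, by organ and sex, with a line at 1. All 12 testes lie above the line, from 1.11 to 1.48, and all 56 other libraries lie below it.

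The level of all L1 reads turned on these loci. These are all deposited reads, before the study's manual curation for transcripts from the L1 promoter, and not its curated L1 mRNA. The paper classed UID-3342 and UID-13571 as background. It also reports that background alone would place uteri and male lungs highest. In 7.6 mo males the median of all L1 reads in RPM was 5483 in lungs and 2357 in testes. Without UID-3342 and UID-6793 it was 839 in lungs and 1836 in testes, so the order of the organs turned round. Over all ages, male lungs had 3850 to 5839 with both loci and 815 to 1145 without them. Testes had 1573 to 3569 with them and 1159 to 2769 without. No lung then stayed above any testis.

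**Figure D4:**
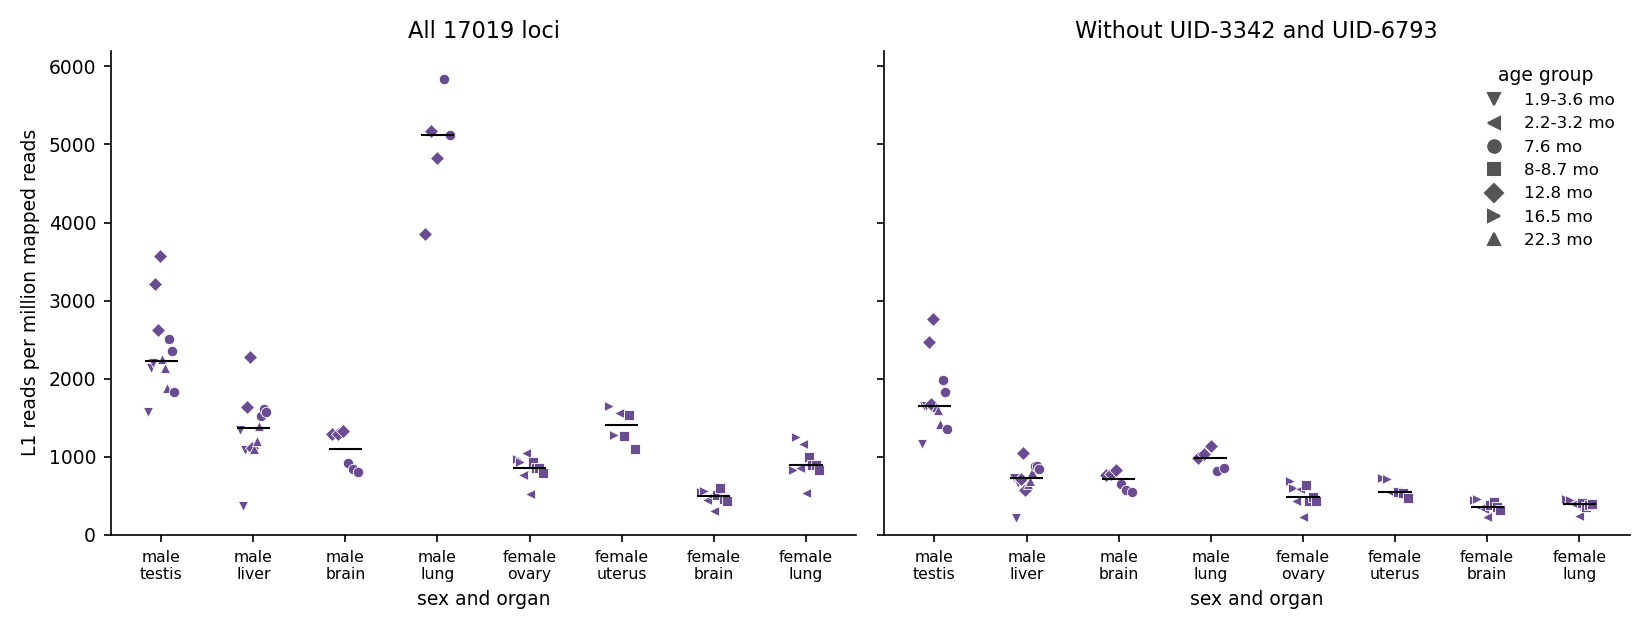
All L1 reads in RPM in each library, with and without the reads of UID-3342 and UID-6793, by organ and sex. Male lungs fell from 3850–5839 to 815–1145 when both loci were left out, and testes from 1573–3569 to 1159–2769.

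Duplicate pairs were removed before counting, so a short stretch can hold only a limited number of different pairs. With fragments of at least 100 bases placed within the covered bases, the kept pairs filled a median of 4.66% of the possible places at UID-3342 (0.777% to 32.7%) and 7.87% at UID-6793 (1.27% to 46.7%). The fullest were the male lungs, at 22.8% to 32.7% and 28.7% to 46.7%. If pairs had fallen evenly over the places, the reads before removal of duplicates would have been up to 1.21 times the deposited ones at UID-3342 and up to 1.35 times at UID-6793. All 22 differences between groups given below kept their direction and their side of the threshold when this factor was applied, a check added after the data were seen.

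The question of the first comparison was how the organs of the same adult males differ. In 7.6 mo males, UID-3342 had 234, 234 and 216 RPM in the testes of mice 1209, 1303 and 1305. It had 364, 424 and 417 in their livers and 149, 157 and 142 in their brains. In the lungs of mice 1209 and 1303 it had 3016 and 2606. The 4 organs did not overlap, with lung first, then liver, testis and brain.

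UID-6793 had 291, 286 and 262 RPM in the same testes. It had 276, 307 and 322 in the livers and 114, 120 and 114 in the brains. In the lungs it had 2007 and 1660. The testes and livers overlapped here, and lungs were highest and brains lowest.

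In edgeR's quasi-likelihood test, with mapped reads as library size and Benjamini-Hochberg adjustment over 819 loci, both loci were lower in testis than in lung. The difference was −3.62 ± 0.11 (log2, SE) for UID-3342, 12.3-fold, with adjusted p = 2.65e-40. For UID-6793 it was −2.71 ± 0.12, 6.56-fold, with adjusted p = 7.15e-31. Of all loci tested, 86.0% passed the threshold of 0.05 in that comparison. A locus could pass the filter on low counts through its testis reads alone, and without that filter 686 of 5916 loci passed. The size of the differences depended on the library size used. For UID-3342 it was −2.07 with DESeq2, −2.31 with total L1 reads as library size and −2.62 with TMM factors. For UID-6793 it was −1.16, −1.40 and −1.71. With the animal as a replicate block, 337 loci passed in place of 704, and both of these stayed past the threshold.

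Against liver, where 88.9% of loci passed, UID-3342 was lower in testis by 1.76-fold (−0.82 ± 0.09, adjusted p = 3.05e-11, edgeR). UID-6793 had a difference of −0.11 ± 0.10 that did not pass (adjusted p = 0.312). An approximate 95% interval, built from the SE, was 0.935 to 1.24 for the fold of liver over testis. Against brain, where 89.6% passed, UID-3342 was 1.53-fold higher in testis (0.61 ± 0.09, adjusted p = 3.56e-08). UID-6793 was 2.42-fold higher (1.27 ± 0.10, adjusted p = 1.51e-16). Both directions against brain turned when a library's total L1 reads were used as its size, to −0.75 (adjusted p = 4.65e-05) and −0.10 (adjusted p = 0.469). The reads on all the other loci were 1836 RPM in these testes and 571 in the brains (medians). The same filter held here, and without it 1015 loci passed against liver and 1235 against brain, of 5916.

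The same question was asked of the female organs at 8–8.7 mo. In mice 1324, 1325, 1337 and 1338, UID-3342 had 179, 235, 215 and 226 RPM in the ovary. It had 93.2, 98.8, 60.4 and 66.0 in the brain and 405, 293, 323 and 227 in the lung. In the uteri of 1324, 1325 and 1338 it had 432, 656 and 434. Brains were below all other organs and uteri above all, and the ovaries and lungs overlapped.

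UID-6793 had 118, 182, 165 and 142 RPM in the ovaries of the same mice. It had 42.5, 75.0, 44.1 and 47.1 in the brains and 188, 244, 186 and 207 in the lungs. In the uteri it had 277, 335 and 193. The brains were lowest, every lung was above every ovary, and uteri overlapped with lungs.

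Both loci were higher in ovary than in brain, where 56.3% of 199 loci passed in the edgeR test. UID-3342 was 2.69-fold higher (1.42 ± 0.21, adjusted p = 1.47e-05) and UID-6793 2.91-fold higher (1.54 ± 0.22, adjusted p = 1.47e-05). Neither passed with TMM factors (adjusted p = 0.107 and 0.0857) or with DESeq2 (adjusted p = 0.0966 and 0.0771), where the differences were 0.71 to 0.91. The plus-strand counts of the brain of mouse 1325 are the only ones not named as free of duplicates, and without that library the differences were 1.55 and 1.77. All loci passing here were split 77 higher and 35 lower in ovary, and 48 to 47 with total L1 reads as library size, 55 to 47 with TMM and 52 to 52 with DESeq2.

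Against uterus, where 27.6% of loci passed, UID-3342 was lower in ovary by 2.37-fold (−1.25 ± 0.22, adjusted p = 0.000484, edgeR), with −0.64 for total L1 reads as library size and −1.90 for TMM. UID-6793 was lower by 1.77-fold (−0.82 ± 0.23, adjusted p = 0.0130). The call of UID-6793 was lost without the ovary of 1324 (adjusted p = 0.0607), without the uterus of 1325 (adjusted p = 0.0602), with total L1 reads as library size (−0.21, adjusted p = 0.414) and without a filter on low counts (adjusted p = 0.0865). The split of all calls was 45 higher and 10 lower in ovary, and 40 to 23 with TMM.

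Against lung, where 35.7% of loci passed, UID-3342 was lower in ovary by 1.46-fold (−0.55 ± 0.20, adjusted p = 0.0391, edgeR). UID-6793 differed by −0.45 ± 0.22, which did not pass (adjusted p = 0.119), and with the animal as a replicate block it did (−0.45, adjusted p = 0.0239). The UID-3342 call was lost with TMM (adjusted p = 0.149), with DESeq2 (adjusted p = 0.116), without a filter on low counts (adjusted p = 0.262), and without any of 6 of the 8 libraries, namely the ovaries of 1324, 1337 and 1338 and the lungs of 1324, 1325 and 1337 (adjusted p from 0.0657 to 0.171).

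Age was compared between the youngest and oldest groups of an organ. In testis, UID-3342 had 173, 229 and 251 RPM at 1.9–3.6 mo and 264, 216 and 205 at 22.3 mo. UID-6793 had 241, 255 and 305 at 1.9–3.6 mo and 351, 319 and 258 at 22.3 mo. These 2 ages overlapped for both loci. The testes of 12.8 mo mice 899, 900 and 901, which entered no test, had 308, 422 and 339 RPM for UID-3342. For UID-6793 they had 427, 529 and 460, so that both loci were above every testis of the other ages. The counted windows were shorter at that age, and the mapped reads of these 3 libraries rest on 119 to 137 of their 147 to 191 listed loci.

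The age differences in testis were 0.07 ± 0.18 and 0.21 ± 0.17 (adjusted p = 0.993 for both, edgeR). Approximate 95% intervals of the fold, built from the SE, were 0.817 to 1.35 and 0.916 to 1.47. In that comparison 0% of 771 loci passed in edgeR, 28 had an unadjusted p under 0.05, and DESeq2 called 1. The UID-3342 value was negative without the testis of mouse 829 (−0.05) or of 1071 (−0.07), and with total L1 reads (−0.01) or TMM (−0.0035).

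In liver, UID-3342 had 342, 95.0 and 235 RPM at 1.9–3.6 mo (mice 1071, 1110 and 1111) and 244, 291 and 310 at 22.3 mo. UID-6793 had 278, 69.1 and 188 in the same young mice and 195, 223 and 284 at 22.3 mo. The liver of 1110 was lowest for both, and its mapped reads rest on 1 locus. The differences were 0.33 ± 0.81 and 0.39 ± 0.80 (adjusted p = 0.918 for both, edgeR), where 4.76% of 63 loci passed. Without the liver of 1110 they were −0.03 and 0.01.

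In ovary, UID-3342 had 185, 355 and 160 RPM at 2.2–3.2 mo (mice 1534, 1535 and 1540) and 171 and 197 at 16.5 mo. UID-6793 had 143, 113 and 139 in the same young mice and 122 and 144 at 16.5 mo. The ovary of 1535 was highest for one locus and lowest for the other, and its mapped reads rest on 4 of 5 loci. The differences were −0.34 ± 0.40 (adjusted p = 0.534) and 0.02 ± 0.35 (adjusted p = 0.971, edgeR), where 4.81% of 187 loci passed. Without that ovary they were 0.09 and −0.08. With DESeq2 the UID-3342 value passed (−1.67, adjusted p = 0.00314), and its size factors moved the median of all loci from 1.62 to 0.38.

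Between the sexes, brain and lung were compared at the nearest ages, 8–8.7 mo in females and 7.6 mo in males. Sex cannot be told apart from age or from any difference in sequencing in this comparison. In lung, UID-3342 had a mean of 312 ± 73.8 RPM (SD, n = 4) in females and 2811 ± 291 (n = 2) in males. UID-6793 had 206 ± 27.1 in females and 1834 ± 245 in males. Every male lung was above every female lung for both loci.

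In the edgeR test UID-3342 was lower in female lungs by 9.01-fold (−3.17 ± 0.20, adjusted p = 3.78e-09) and UID-6793 by 8.88-fold (−3.15 ± 0.18, adjusted p = 1.47e-09). Of 110 loci 16.4% passed, and the median locus differed by −0.26. Of the loci tested, 93.6% had a higher log2 difference than UID-3342 and 92.7% had a higher one than UID-6793. Loci passing were split 4 higher and 14 lower in females, and 61 to 3 with total L1 reads as library size, where the 2 loci make up most of the male total. The split was 12 to 12 with TMM and 15 to 12 with DESeq2, and both loci stayed lower in females past the threshold under all of these. With total L1 reads the differences were −0.59 for UID-3342 (adjusted p = 0.00899) and −0.55 for UID-6793 (adjusted p = 0.0165).

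In brain, UID-3342 had a mean of 79.6 ± 19.2 RPM (SD, n = 4) in females and 149 ± 7.07 (n = 3) in males. UID-6793 had 52.2 ± 15.3 in females and 116 ± 3.57 in males. The sexes did not overlap. UID-3342 was lower in females by 1.88-fold (−0.91 ± 0.23, adjusted p = 0.0345, edgeR) and UID-6793 by 2.22-fold (−1.15 ± 0.25, adjusted p = 0.0163), where 11% of 146 loci passed. Neither call held with total L1 reads, TMM or DESeq2 (adjusted p from 0.135 to 0.504). The split of all calls was 5 higher and 11 lower in females, and 17 to 4, 6 to 6 and 11 to 9 under these. The UID-3342 call was also lost without the female brain of 1337 or 1338 or any 1 of the 3 male brains (adjusted p from 0.0866 to 0.146). The UID-6793 call was lost without the female brain of 1338 or any 1 of the male brains (adjusted p from 0.0621 to 0.0786).

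To see what the pair shares with other L1 loci, the overlap of all L1 intervals with 9940 annotated processed pseudogenes was taken, on the same strand and over at least 100 bp. There were 77 such L1 loci, of which 23 had no read in any mouse library and 6 had a median of at least 10 reads. Beside the pair, those with the highest medians were UID-8004 with Eif1-ps2 (median 196 reads, range 52 to 481), UID-2739 with Gm4045 (median 52) and UID-5815 with Gm5539 (median 45.5), named after their values were seen. The same counts were not taken over all 17019 loci. Whether L1 loci with a pseudogene had more or fewer reads than others was therefore not tested. By name, 2 of the 77 hold a ribosomal protein pseudogene, UID-3342 and UID-4288. By closest transcript, a match added after the data were seen, there were 8, of which 7 are described here.

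The 5 others described had at most 4 reads in any library, and 2 of them had none. UID-5213 (Gm43028, closest to Rpl21) and UID-6685 (Gm5845, closest to Rpl7a) had at most 4, and UID-3127 (Gm8662, closest to Rpl9) at most 2. UID-4288 (Rplp1-ps1) and UID-6380 (Gm8599, closest to Rps18) had no read in any library.

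The pair and these 5 others differed in how many stretches of mRNA matched them and no other annotated gene beside the parent. Each closest mRNA was cut into all its 100-base stretches within the aligned part, and a stretch counted where it matched the pseudogene with at most 3 mismatches, as the alignment allowed. For Rps24-ps3 all 303 stretches matched, 168 of them across an exon junction. Of the 303, 54 matched no annotated transcript of a gene other than the parent and the pseudogene, and all 54 crossed a junction. For Gm4332 all 247 stretches matched, 163 across a junction. Of these, 156 matched no other copy and 94 of them crossed a junction. The stretches across a junction without another copy matched only the parent and the pseudogene among the annotated transcripts searched. A stretch counted as across a junction with at least 4 bases on each side. Whether such a stretch also has an unbroken place in the parent gene within 3 mismatches was not checked.

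At the 5 other loci the number of stretches without another copy was 0 in each. Matching itself was common there, with 693 of 697 stretches at Gm5845, 303 of 381 at Gm43028 and 216 of 480 at Gm8662. The number of other annotated genes and pseudogenes matched was 113 for Gm5845, 83 for Gm43028, 11 for Gm8662, 4 for Rplp1-ps1 and 7 for Gm8599, against 9 for Rps24-ps3 and 3 for Gm4332. At Rplp1-ps1 18 of 246 stretches matched, and at Gm8599 1 of 357, with identities of 91.9% and 92.8%. The stretches across a junction without another copy reached 153 bases of Rps24-ps3 and 262 bases of Gm4332. These counts are over annotated transcripts, for single reads of 100 bases and not for pairs. They were taken only at loci of the ribosomal type, and their relation to the reads was not tested. Reads of a pseudogene's own transcript and reads of the parent's mRNA cannot be told apart from counts per locus.

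**Figure D5:**
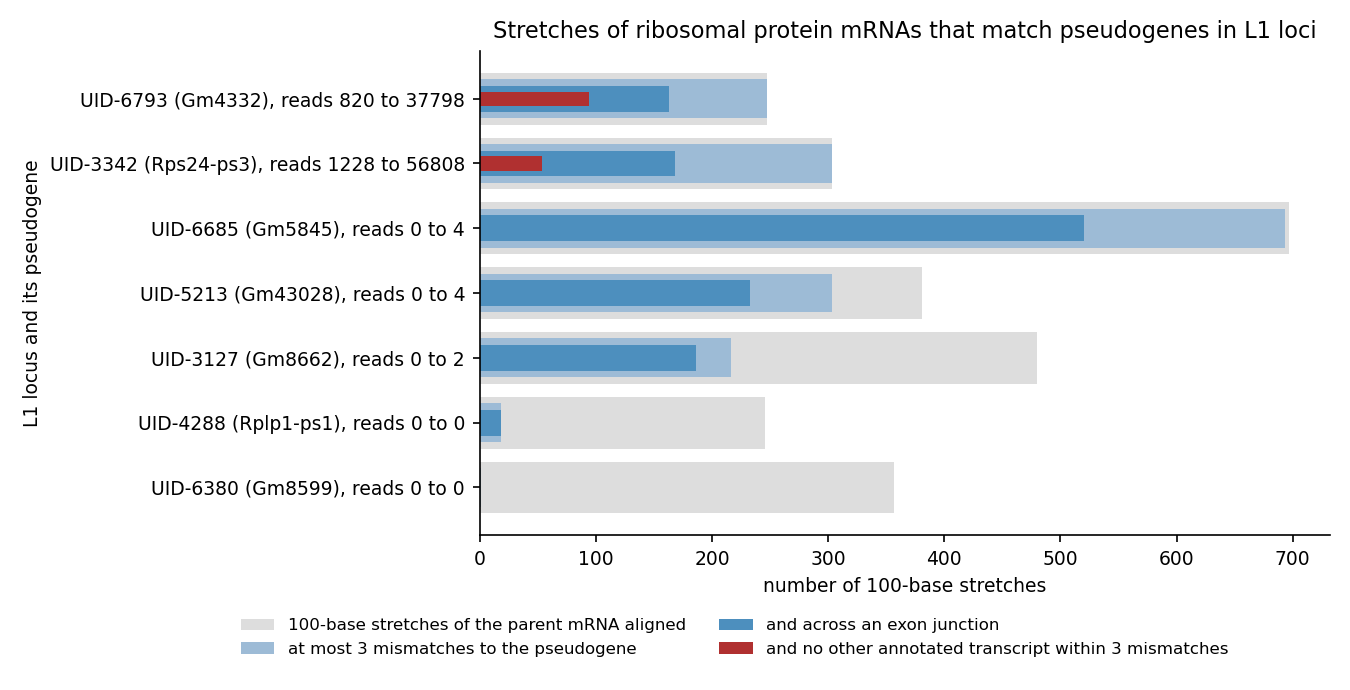
Nested bars for 7 L1 loci with a ribosomal-type processed pseudogene, by number of 100-base stretches of the closest mRNA: all aligned ones, those within 3 mismatches of the pseudogene, those of them across an exon junction, and those of the last without another annotated copy, with the range of reads beside each name. Among these 7 loci the last kind was found only at UID-6793 (94) and UID-3342 (54). Its relation to the reads was not tested.

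Over the means of the 24 groups, the locus most like UID-3342 was UID-6793, and the reverse, with Pearson's r = 0.95 on log2 levels with 0.1 added. This was among 110 other loci with at least 10 reads in 20 or more libraries. The next were UID-15041 (r = 0.70 to UID-3342 and 0.60 to UID-6793) and UID-15149 (0.70 and 0.61). The median r over all 110 loci was −0.06 and −0.08. These correlations are descriptions over groups that share mice and libraries, and UID-15041 and UID-15149 had medians of only 5 and 4.5 reads.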

How the data were processed

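Per the study's methods, the authors aligned read pairs to mm10 with Bowtie, keeping unique concordant pairs with at most 3 mismatches, removed duplicates with samtools and counted reads per full-length L1 window and strand with bedtools. The deposited values used here are counts (reads per locus, mates separately) and the coverage, the fraction of the window with reads. Windows at 12.8 mo are shorter and were joined to the others by the L1's position. Each library's mapped reads (8.45 to 51.4 M) were recovered as deposited reads divided by the study's tabulated FPKM and 6 kb. The value taken was the one on which the largest number of tabulated loci coincide within 0.2%, which need not be a majority. This value rests on few loci in livers (1 to 6) and, in the 12.8 mo lungs, on 8 or 9 of 19 to 22 loci. In the 12.8 mo liver of mouse 900 none of the 3 tabulated loci coincided, and the lowest of their values, 13.1 M, was used. At 22.3 mo the tabulated animal numbers did not match the counts, and the column of the same organ and age with the most coinciding loci was used.

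The members, the groups compared and the lists of loci were chosen with earlier results of these data known. Loci named are the pair, UID-13571, the loci with ribosomal processed pseudogenes (up to 6 by reads) and the 3 most like each member, with those named otherwise said so. Differences were tested with edgeR 4.0.16 (quasi-likelihood, R 4.3.3) over the loci that reached 10 reads in a number of libraries equal to the size of the smaller group, with mapped reads as library size and Benjamini-Hochberg adjustment at 0.05. Male organs and female organs were each fitted in 1 model, and ages and sexes in separate ones. The code was tested on simulated counts. DESeq2 1.42.0 was an alternative, as were total L1 reads and TMM factors as library size, no filter, each library left out and the animal as a replicate block. Organs share animals by their labels. The correlation of same-animal deviations had a median of 0.0508 over 15 male pairs of libraries (3 over 0.1) and 0.0864 over 21 female pairs (10 over 0.1). Pseudogenes were matched to the GENCODE transcripts of mm10 with blastn 2.17.0+. Replicates are separate mice. One locus with a ribosomal-type pseudogene is not reported here.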

Additional observations from a re-analysis of the deposited data

Results flagged for a closer look

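Groups of 4 mice were looked at for a library far from the others, over 30 combinations of group and measure, and 4 were past the limit for such a gap, where chance gives about 1 in 20. In the brains of 8–8.7 mo females, UID-6793 had 2898 reads and 75.0 RPM in mouse 1325, against 1460 to 1684 reads and 42.5 to 47.1 RPM in the other 3. The plus-strand counts of that library are not named as free of duplicates, its L1 reads on the plus strand were 1.62 times those on the minus strand against 1.15 to 1.19 in the other 3, and its mapped reads rest on 8 of 15 loci; the part of these in its level was not tested. In the same group the ratio of UID-6793 to UID-3342 reads was 0.456 in mouse 1324, against 0.713 to 0.759 in the others. In the lungs of 8–8.7 mo females, UID-3342 covered 513 bases in mouse 1325 and 512 in the other 3, a gap of 1 base.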

How the results depend on the processing

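Of 22 differences between groups, 14 passed the threshold. Over 268 alternatives, 214 kept direction and side of the threshold, 33 lost it, 3 gained it, 16 reversed, and the 2 median shares moved to 41.6% and 31.4% without both loci in the denominator. The 6 that passed under every alternative run were UID-3342 in testis against liver, both loci in testis against lung, UID-3342 in ovary against uterus and both in the lung between sexes.

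With total L1 reads as library size, testis against brain reversed (−0.75 and −0.10 for UID-3342 and UID-6793), UID-6793 passed in testis against liver (−0.60) and was lost in ovary against uterus (−0.21), and both were lost in brain between sexes (−0.15 and −0.39). The not called age values of UID-3342 in testis (−0.014) and liver (−0.073) and of UID-6793 in ovary (−0.42) reversed. With TMM, calls were lost for UID-3342 in testis against brain (0.29), both loci in ovary against brain (0.85 and 0.91), UID-3342 in ovary against lung (−0.85) and both in brain between sexes (−0.75 and −0.94), and age values of UID-3342 in testis (−0.0035) and UID-6793 in ovary (−1.54) reversed. With DESeq2, calls were lost for both in ovary against brain (0.71 and 0.80), UID-3342 in ovary against lung (−0.72) and both in brain between sexes (−0.66 and −0.84). With DESeq2 UID-3342 passed for age in ovary (−1.67), and age values in liver (−0.17 and −0.087) and of UID-6793 in ovary (−1.52) reversed. Without a filter, calls were lost for UID-3342 in ovary against lung (−0.55) and UID-6793 in ovary against uterus (−0.82). The cause was not tested.

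Other scalings moved the median of all loci by up to 2.56 (total L1 reads, lung between sexes) and down to −1.30 (TMM, ovary age). DESeq2 called 280, 326 and 301 loci in testis against liver, brain and lung, where edgeR called 728, 734 and 704. Without a filter, edgeR called 1235 in testis against brain, 35 in place of 55 in ovary against uterus, 10 in place of 16 in brain between sexes, and 1 each in testis, liver and ovary by age. In ovary by age 9 loci were called (9 higher, 0 lower), none (0) with total L1 reads or TMM, and 14 (2 higher, 12 lower) with DESeq2, with 43, 51, 28 and 26 at an unadjusted p under 0.05.

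Leaving out 1 library, 117 of 140 values kept both their direction and their side of the threshold. For UID-3342 and UID-6793 the ranges were −1.03 to −0.80 and −1.38 to −1.06 in brain between sexes, −0.67 to −0.39 and −0.55 to −0.34 in ovary against lung, and −1.35 to −1.02 and −1.01 to −0.63 in ovary against uterus. For age they were −0.070 to 0.19 and 0.11 to 0.33 in testis, −0.033 to 0.77 and 0.01 to 0.86 in liver, and −0.55 to 0.092 and −0.10 to 0.13 in ovary. With the animal as a replicate block, UID-6793 passed in ovary against lung (−0.45) and no other call of the pair changed. For the age and sex comparisons no paired analysis was possible, because the age groups and the sexes share no animals.

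Levels rest on mapped reads that are uncertain for the livers, the 12.8 mo lungs and testes, and the ovary and lung of mouse 1535 (4 loci each). Lungs at 7.6 mo are 2 mice. The places of the covered bases, and with them the share of reads on the pseudogenes, were not analysed here.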
